A study of Mus musculus with 10 samples.

Results

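Genes that specify lung and stomach lineages, and genes that mark progression of lung tumors, were followed in 10 tumors grown from KPN1.1, a cultured mouse line that the sample labels class as lung adenocarcinoma. The set held 10 genes, given as a list of symbols, of 55401 genes in the count file. It held 5 lung genes (Nkx2-1, Sftpc, Hopx, Foxa1 and Foxa2), 2 gastric genes (Hnf4a and Gkn2) and 3 progression genes (Sox9, Hmga2 and Runx2). The questions were how high each gene stood in vehicle tumors, how far tumors of one group differed, and whether the level differed with liraglutide, an agonist of the glucagon-like peptide-1 receptor.

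All 10 tumors grew in obese male C57BL/6J mice that had no engineered allele stated, with 75000 cells injected under the skin of the flank at 7 to 17 weeks of age. From the time a tumor could be felt, 5 mice received liraglutide (0.2 μg per g of body weight per day, into the peritoneum) and 5 received the PBS vehicle. Tumors were taken 19 to 22 days after injection, and ribosomal RNA was depleted from the RNA of a frozen fragment. One cell line was used, so the tumors of a group are repeated grafts of the same cells into different mice, under the skin rather than in the lung. The fragments contained host cells, and in such bulk RNA fewer cells of a type and less RNA per cell cannot be told apart. Total counts ranged from 9927942 to 14480593 per tumor, so that 3 counts, taken here as the lowest readable level, corresponded to between 0.207 and 0.315 CPM, the count scaled to library size. Such floors cover counting error only.

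NKX2-1 is the homeobox transcription factor that sets lung and thyroid identity, and it is used clinically as a marker of lung adenocarcinoma. The lung buds from the foregut, next to the future stomach. In mouse lung tumors, loss of NKX2-1 is known to let gastric genes come on, with the forkhead factors FOXA1 and FOXA2 and the nuclear receptor HNF4A acting in that program. HMGA2, SOX9 and RUNX2 are known from less differentiated or metastatic stages of mouse lung adenocarcinoma. SFTPC, a surfactant protein, marks alveolar type 2 cells, HOPX marks alveolar type 1 cells, and GKN2 is a secreted protein of the gastric surface.

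Promoters of 8 of the 10 genes were matched in RefSeq on GRCm38.p6 (Sftpc and Sox9 were not matched), as 12 windows from 250 bases before to 50 bases after a transcript start. They are shown because the 10 genes differed widely in how far their levels ranged, from the wide range of Gkn2 to the narrow one of Runx2. The lines below give the 120 bases before the start, 5′ to 3′ on the strand of the gene. Nkx2-1 lies at chr12:56536909-56537028 (minus strand), with AACAAT, the core letters bound by SOX factors, in capitals. Foxa1 lies at chr12:57546112-57546231 (minus strand) and holds none of the motifs in these 120 bases. Gkn2 lies at chr6:87373245-87373364 (plus strand), with the TATA box in capitals. Runx2 lies at chr17:44814628-44814747 (minus strand), with AACCACA, the opposite-strand reading of the RUNX letters TGTGGTT, in capitals.
Nkx2-1: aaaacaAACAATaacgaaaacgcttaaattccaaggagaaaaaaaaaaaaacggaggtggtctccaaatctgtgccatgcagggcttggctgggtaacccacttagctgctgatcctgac
Foxa1: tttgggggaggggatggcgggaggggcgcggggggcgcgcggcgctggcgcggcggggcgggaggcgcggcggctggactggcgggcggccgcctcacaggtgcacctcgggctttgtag
Gkn2: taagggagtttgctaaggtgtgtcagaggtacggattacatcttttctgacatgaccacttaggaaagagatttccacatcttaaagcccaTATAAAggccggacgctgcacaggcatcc
Runx2: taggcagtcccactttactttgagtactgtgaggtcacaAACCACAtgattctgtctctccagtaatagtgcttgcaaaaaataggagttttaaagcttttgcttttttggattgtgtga

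In all, 6 motifs were searched on both strands, and a match is a description of letters, not of a bound site. The TATA box (TATAAA) was found in 13.6% of all 32851 promoter windows, the forkhead core (TGTTTAC) in 3.65%, CTCAAG, letters bound by NKX2-1, in 15.9%, an HNF4 site (CAAAGTCCA) in 0.475%, the RUNX core (TGTGGTT) in 5.27% and the SOX core (AACAAT) in 10.7%. The Gkn2 window held the TATA box 29 bases before the start. The full Foxa1 window held a forkhead match at base -141 and 26 CpG dinucleotides, more than the 12 of Nkx2-1 and Hmga2, the 6 of Gkn2 and the 2 of Runx2. RUNX letters occurred 3 times in the Runx2 window, at bases -81, 22 and 30, and once in that of Gkn2, at base -142. CTCAAG was present in both Hopx windows and in 1 of the 3 Foxa2 windows, and no window of the 8 genes held the HNF4 letters. Nkx2-1 and Foxa1 lie on the same chromosome (GRCm39 chr12:56578742-56583722 and chr12:57587414-57593702), as do Foxa2 and Hnf4a (chr2:147884797-147889005 and chr2:163348728-163414830).

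Among vehicle tumors, transcripts of the gastric regulator Hnf4a stood above those of the lung regulator Nkx2-1 in each tumor. Compared as CPM per kilobase of exon, which lets genes be compared, the level of Hnf4a was 50.9 ± 13.4 (SD, n = 5), at the 97.1th percentile of the 17464 genes tested. Nkx2-1 stood at 15.3 ± 11 CPM per kilobase, at the 86.1th percentile. Hmga2, a chromatin protein of embryonic and advanced tumor cells, was near Hnf4a at 45.8 ± 16.1 CPM per kilobase. Sox9, a factor of embryonic lung tips and cartilage, followed at 24.1 ± 15.9, and Gkn2 at 18.8 ± 32.8 CPM per kilobase, an average set by 1 tumor (the vehicle mean was 14.9 CPM, and 3.5 CPM without vehicle tumor 5). The forkhead pair was close together, with Foxa2 at 13.7 ± 4.86 and Foxa1 at 12.9 ± 4.85 CPM per kilobase, and Runx2 was at 10.2 ± 1.22. The alveolar markers were lowest, with Sftpc at 1.11 ± 2.02 CPM per kilobase (22.7th percentile, a vehicle mean of 1.15 CPM, and 0.227 CPM without vehicle tumor 4) and Hopx at 0.152 ± 0.128 (1.8th percentile). Nkx2-1 and these 2 alveolar markers thus stood far apart in level.

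Only some steps of this order held in every vehicle tumor. Hmga2 stood above Sox9 in 5 of 5 vehicle tumors, by 1.16 ± 0.74 on the log2 scale, and Runx2 above Sftpc in 5 of 5, by 4.26 ± 2.16. The order was set by the means of the same 5 tumors, so these counts are a description, with no test. Sftpc stood above Hopx in 4 of 5 tumors and Foxa1 above Runx2 in 4 of 5. For the other neighbors the order held in 3 tumors or fewer, including Hnf4a over Hmga2 (difference 0.19 ± 0.91, 3 of 5) and Foxa2 over Foxa1 (0.1 ± 1.06, 3 of 5). Gkn2 was above Nkx2-1 by the mean but in only 1 of 5 tumors. In the liraglutide tumors Hnf4a and Hmga2 again led and Sftpc and Hopx were last, while the mean of Nkx2-1 was above that of Sox9.

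Across all genes, the comparison of treatments gave no call, and none of the 10 genes passed it. With edgeR's quasi-likelihood F test, 0 of 17464 genes had a Benjamini-Hochberg adjusted p under 0.05 with an absolute log2 fold change over 0.58 (0%), and the smallest adjusted p was 0.482 (0.0526 without vehicle tumor 4 and 0.9 without liraglutide tumor 5). At an unadjusted p under 0.05 there were 1675 genes, 9.59% of those tested, with 694 higher and 981 lower under liraglutide. Scaling by library size alone turned this balance, with 990 of 1609 higher, and the count was 2704 without vehicle tumor 4 and 919 without liraglutide tumor 5. Of the 9 lineage genes tested, 1 was among them (Nkx2-1), a share close to the background. DESeq2 called 18 genes by the same thresholds (0.103%), and limma-voom called 0. Of the 9 lineage genes tested, DESeq2 called 0, and it gave no adjusted p for Sftpc and Gkn2. Hopx was not tested by it. Groups did not overlap for 261 genes (1.49% of those tested), and they overlapped for all 10 lineage genes.

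Nkx2-1 (ENSMUSG00000001496.15) gave the lowest p of the set. Vehicle tumors 1 to 5 measured 25.2, 17.7, 26.6, 95.4 and 66.6 CPM, from raw counts of 365, 175, 253, 1140 and 818. Liraglutide tumors 1 to 5 measured 66.1, 52.2, 109, 99.9 and 132 CPM, from 765, 639, 1435, 1058 and 1776 counts. Vehicle tumors 1, 2 and 3 lay below every liraglutide tumor and liraglutide tumors 3, 4 and 5 above every vehicle tumor, with vehicle tumors 4 and 5 among the treated values. The means were 46.3 ± 33.4 and 91.8 ± 32.5 CPM (SD, n = 5 each). The log2 fold change was 0.99 (SE 0.45, 95% interval 0 to 1.97), with an adjusted p of 0.52 by edgeR's test, or 0.0495 before adjustment. The 2-sided exact permutation test of this single gene gave p = 0.0635, where 5 against 5 allow a smallest p of 0.00794. The difference stayed positive in all 19 settings tried (0.78 to 1.44), and the unadjusted p was under 0.05 in 11 of them. The adjusted p from the tests of these settings ranged from 0.186 to 0.9. All settings draw on the same 10 tumors, so they are not separate support.

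Sftpc (ENSMUSG00000022097.4), whose promoter is a classic NKX2-1 target, had few reads. Counts were 1, 0, 1, 58 and 9 in vehicle tumors and 1, 36, 55, 11 and 80 in liraglutide tumors. In CPM these were 0.0691, 0, 0.105, 4.85 and 0.733 against 0.0864, 2.94, 4.17, 1.04 and 5.95. Vehicle tumors 1 to 3 and liraglutide tumor 1 lay under the 3-count level, and the groups overlapped at both ends. The means were 1.15 ± 2.09 and 2.84 ± 2.36 CPM, a log2 fold change of 1.28 (SE 1.09, 95% interval -1.11 to 3.68, edgeR adjusted p = 0.698, exact permutation p = 0.175). Without vehicle tumor 4 the log2 fold change was 3.56, with an unadjusted p of 0.00785 and an adjusted p of 0.2 by edgeR.

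Hopx (ENSMUSG00000059325.14), a homeodomain protein without DNA binding of its own, was too low for the filter. It had 1, 0, 6, 6 and 6 counts in vehicle tumors and 3, 13, 10, 4 and 7 counts in liraglutide tumors. The means were 0.338 ± 0.283 and 0.595 ± 0.32 CPM, close to the 3-count level, and the groups overlapped (exact permutation p = 0.222). Kept in an edgeR fit without the filter, Hopx had a log2 fold change of 0.83 (SE 0.67, adjusted p = 0.62). An antisense transcript, Hopxos, shares 864 exon bases with Hopx and had 5 counts over the 10 tumors.

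The forkhead factors open chromatin in foregut endoderm and act with both NKX2-1 and HNF4A. Foxa1 (ENSMUSG00000035451.7) measured 63.5, 57.4, 36.9, 34 and 25.1 CPM in vehicle tumors and 45.7, 52.8, 31, 40.6 and 44 CPM in liraglutide tumors. The highest and the lowest values were both in vehicle tumors, so that the treated range lay inside the vehicle range. Means of 43.4 ± 16.3 and 42.8 ± 7.97 CPM gave a log2 fold change of -0.02 (SE 0.24, 95% interval -0.55 to 0.52, edgeR adjusted p = 0.986). The sign of so small a value turned with the setting.

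Foxa2 (ENSMUSG00000037025.11) measured 31.4, 30.6, 45.6, 57.1 and 68.7 CPM in vehicle tumors and 58.7, 38.2, 61.9, 58.4 and 64.5 CPM in liraglutide tumors. Liraglutide tumor 2 stood apart from 4 treated tumors that lay close together, and the vehicle values again enclosed the treated ones. Means were 46.7 ± 16.5 and 56.3 ± 10.4 CPM, a log2 fold change of 0.27 (SE 0.23, 95% interval -0.24 to 0.79, edgeR adjusted p = 0.704). Within vehicle tumors the Foxa1 and Foxa2 levels ran in nearly opposite order, with the log2 ratio of Foxa2 to Foxa1 counts at -1.02, -0.91, 0.31, 0.75 and 1.45 in tumors 1 to 5. In liraglutide tumors this ratio was 0.36, -0.47, 1, 0.52 and 0.55.

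Hnf4a (ENSMUSG00000017950.16), a nuclear receptor of liver, gut and gastric-like lung tumors, was abundant in every tumor. It measured 199, 171, 281, 301 and 328 CPM in vehicle tumors and 347, 241, 390, 323 and 305 CPM in liraglutide tumors. Vehicle tumors 1 and 2 were below every treated tumor, and liraglutide tumors 1 and 3 were above every vehicle tumor. Means were 256 ± 67.5 and 321 ± 55 CPM, a log2 fold change of 0.33 (SE 0.19, 95% interval -0.09 to 0.75, edgeR adjusted p = 0.593, exact permutation p = 0.159). The highest tumor was 2.28-fold above the lowest, so no tumor lacked Hnf4a.

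Gkn2 (ENSMUSG00000030049.5), by contrast, was carried by single tumors. Counts were 12, 6, 4, 145 and 740 in vehicle tumors and 15, 58, 31, 62 and 1067 in liraglutide tumors. In CPM these were 0.829, 0.608, 0.42, 12.1 and 60.3 against 1.3, 4.73, 2.35, 5.86 and 79.4. The tumor numbered 5 was highest in each group, and the highest of all tumors was 189-fold above the lowest, the widest range of the 8 genes that had a count in every tumor and passed the filter. Means of 14.9 ± 25.9 and 18.7 ± 34 CPM gave a log2 fold change of 0.33 (SE 1.37, 95% interval -2.68 to 3.35, edgeR adjusted p = 0.948). It was 2.42 without vehicle tumor 5 and -2.07 without liraglutide tumor 5.

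**Figure D1:**
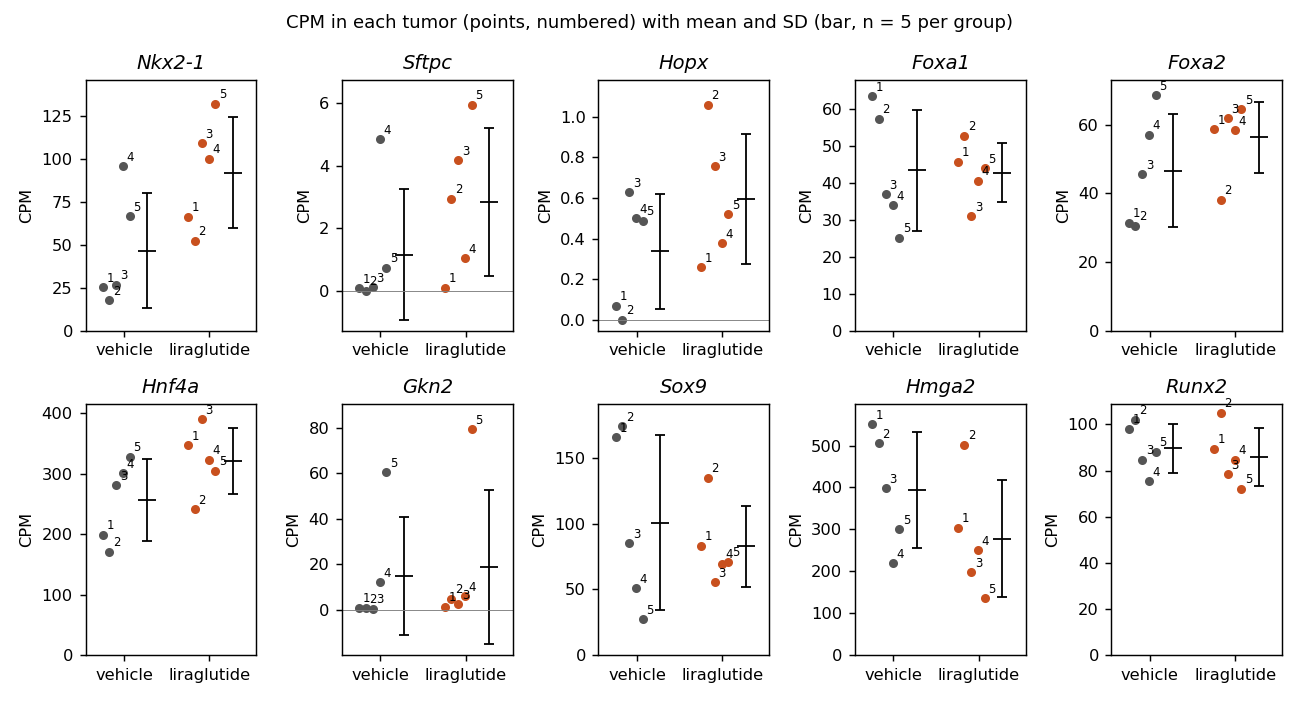
CPM of each gene in every tumor (points with tumor numbers) by treatment, with the mean and SD of 5 tumors as a bar, each panel on its own linear axis. Nkx2-1 averages 46.3 in vehicle and 91.8 in liraglutide tumors with overlap, and in Gkn2 the tumor numbered 5 stands above the rest in each group.

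Of the progression genes, Hmga2 had the largest difference. Hmga2 (ENSMUSG00000056758.14) measured 551, 506, 398, 219 and 300 CPM in vehicle tumors and 304, 502, 197, 250 and 136 CPM in liraglutide tumors. Vehicle tumors 1 and 2 were above every treated tumor, and liraglutide tumors 3 and 5 were below every vehicle tumor. Means were 395 ± 139 and 278 ± 140 CPM, a log2 fold change of -0.51 (SE 0.34, 95% interval -1.26 to 0.25, edgeR adjusted p = 0.633, exact permutation p = 0.206). It was negative in all 19 settings, at -0.82 without liraglutide tumor 2 (adjusted p = 0.304 by edgeR) and -0.33 without liraglutide tumor 5. An antisense transcript, 1700006J14Rik, shares 182 exon bases with Hmga2, and the sources used here do not say whether counting used strand. Opposite-strand genes also share exon bases with Nkx2-1 (110, Gm26973), Sox9 (542, BC006965) and Runx2 (519, Runx2os1, and 362, Supt3), with the same limit.

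Sox9 (ENSMUSG00000000567.5) varied more among vehicle tumors than among treated ones. It measured 166, 174, 84.9, 50.9 and 27.4 CPM in vehicle tumors and 83.3, 135, 55.3, 69.4 and 70.9 CPM in liraglutide tumors. The highest pair and the lowest pair of all 10 values were vehicle tumors. Means were 101 ± 66.5 and 82.8 ± 30.8 CPM, a log2 fold change of -0.28 (SE 0.45, 95% interval -1.27 to 0.71, edgeR adjusted p = 0.844).

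Runx2 (ENSMUSG00000039153.17), the master factor of bone formation, was the steadiest of the set. It measured 98.1, 102, 84.7, 75.4 and 88.1 CPM in vehicle tumors and 89.5, 105, 78.4, 84.6 and 72.1 CPM in liraglutide tumors. The 2 groups covered nearly the same range, and the highest tumor was 1.46-fold above the lowest. Means were 89.8 ± 10.8 and 86 ± 12.7 CPM, a log2 fold change of -0.06 (SE 0.12, 95% interval -0.33 to 0.21, edgeR adjusted p = 0.878). The narrow interval bounds a treatment difference in Runx2 more tightly than in any of the other 8 genes tested.

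**Figure D2:**
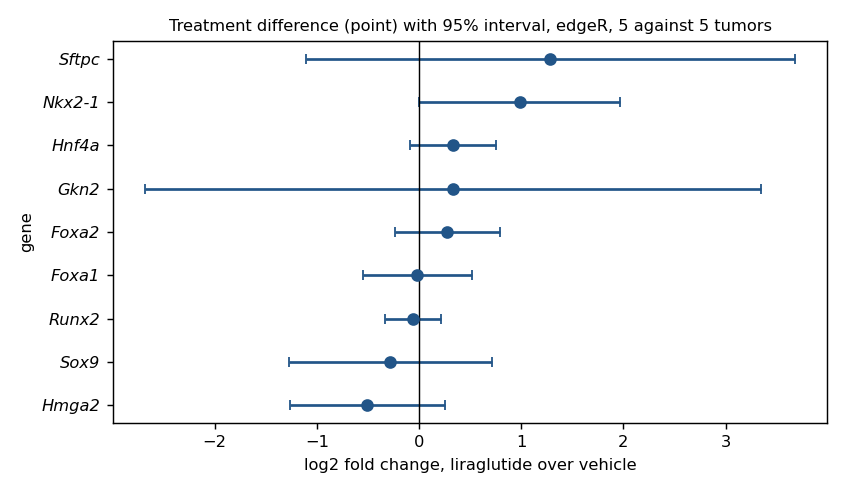
Log2 fold change of liraglutide over vehicle for the 9 genes tested (points) with 95% intervals from edgeR, 5 against 5 tumors. The interval of Nkx2-1 runs from 0 to 1.97, that of Gkn2 from -2.68 to 3.35 and that of Runx2 from -0.33 to 0.21.

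The genes divided into 2 sets by how they ran together from tumor to tumor. Nkx2-1, Sftpc, Foxa2, Hnf4a and Gkn2 had positive correlations of log2 CPM with each other over the 10 tumors, and so did Foxa1, Sox9, Hmga2 and Runx2. All 16 pairs inside a set had a positive Pearson r (0.42 to 0.96), and 0 of the 20 pairs across the sets did (-0.9 to -0.4). The sets were formed from these signs, so the counts are a description. Nkx2-1 and Hmga2 had r = -0.89 (Spearman rho -0.96), and r = -0.87 after the group means were removed. Foxa1 ran with Sox9 (r = 0.96, rho 0.9) and against its relative Foxa2 (r = -0.81, rho -0.72). Foxa2 ran with Hnf4a (r = 0.93, rho 0.87), and Hmga2 with Runx2 (r = 0.93, rho 0.9). Nkx2-1 and the gastric regulator Hnf4a had r = 0.82 (rho 0.73), and 0.49 without the 2 tumors farthest from the median of Nkx2-1, while the lung gene Foxa1 had r = -0.76 (rho -0.68) with Hnf4a.

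Within groups the division was fuller in vehicle tumors. There 16 of 16 pairs inside a set were positive and 0 of 20 across, and in liraglutide tumors 13 of 16 and 1 of 20, though 5 tumors are few for any one pair. With the 2 tumors farthest from the median of the first gene left out, 15 of 16 and 0 of 20 were positive. The r of Nkx2-1 and Hmga2 was then -0.84 and that of Foxa1 and Sox9 was 0.9, while Nkx2-1 and Foxa1 went from -0.54 to -0.07 and Hnf4a and Gkn2 from 0.42 to -0.01. Leaving out the tumors farthest on a gene narrows its range, so these values cannot show that a relation rested on those tumors. Within groups, Nkx2-1 and Foxa1 had r = -0.77 in vehicle and -0.64 in liraglutide tumors. Hnf4a and Gkn2 had r = 0.72 in vehicle and -0.32 in liraglutide tumors. The log2 ratio of Nkx2-1 to Hmga2 counts within a tumor, which does not depend on library scaling, was -4.45, -4.83, -3.9, -1.2 and -2.17 in vehicle tumors and -2.2, -3.27, -0.86, -1.32 and -0.04 in liraglutide tumors. Vehicle tumors 1 to 3 were lowest, vehicle tumors 4 and 5 lay among the treated ones, and liraglutide tumor 5 was highest.

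**Figure D3:**
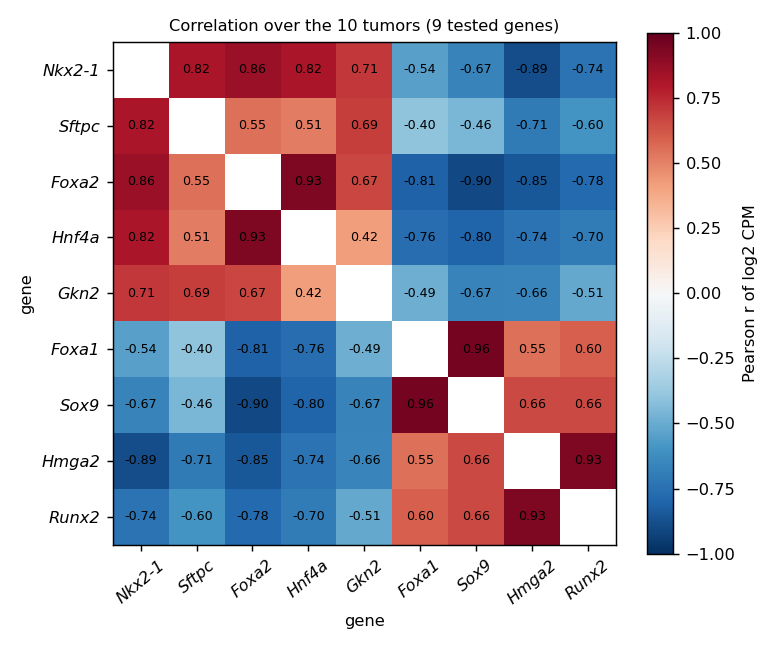
Pearson r of log2 CPM over the 10 tumors for each pair of the 9 genes that passed the filter on low counts (red, positive, blue, negative). The 5 genes from Nkx2-1 to Gkn2 form a positive block, the 4 from Foxa1 to Runx2 form another, and all 20 pairs between the blocks are negative.

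Much of the rest of the transcriptome ran the same way, so such relations were common among the genes tested. The first principal component of the other tested genes held 48.7% of the variance. Its score was -69.2, -67, -32.3, 38.4 and 39.2 in vehicle tumors and -4.22, -28.2, 49.7, 24.2 and 49.4 in liraglutide tumors. Along it Nkx2-1 and Foxa2 had r = 0.94 each, Hnf4a 0.86, Sftpc 0.77 and Gkn2 0.75, against -0.78 for Foxa1, -0.82 for Runx2, -0.86 for Sox9 and -0.91 for Hmga2. The points share libraries and the component, and r is given without a test. Vehicle tumors 1 to 3 lay at the low end and vehicle tumors 4 and 5 near the high end, so that the vehicle group alone covered most of the range.

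**Figure D4:**
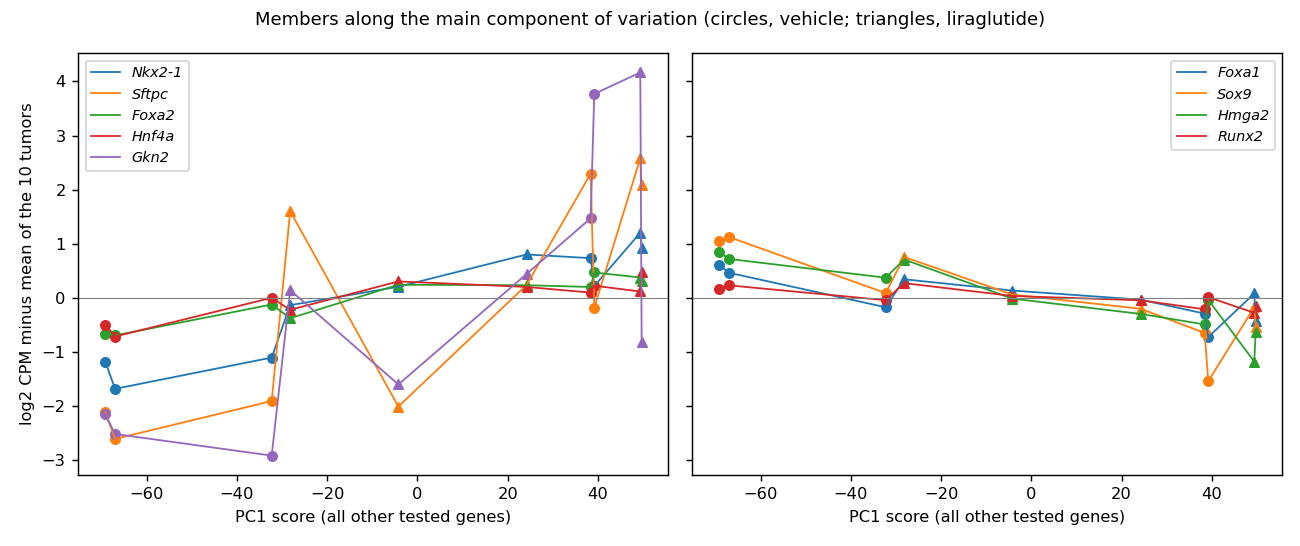
Log2 CPM of each gene, as the difference from its mean over the 10 tumors, against the score of each tumor on the first principal component of the other tested genes (circles, vehicle, triangles, liraglutide, lines join tumors in score order). Genes of the left panel climb with the score and genes of the right panel decline, with vehicle tumors 1 and 2 at the far left of both.

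Leukocyte markers ran with some of these genes and against others. The 8 leukocyte markers summed to 105, 95.4, 141, 181 and 158 CPM in vehicle tumors and 115, 111, 209, 177 and 184 CPM in liraglutide tumors. None was at 0 in all tumors. The log2 sum had r = 0.83 with Nkx2-1, 0.82 with Foxa2, 0.79 with Hnf4a, 0.74 with Sftpc and 0.58 with Gkn2. With Foxa1 it had r = -0.75, with Sox9 -0.77, with Hmga2 -0.88 and with Runx2 -0.89. All 7 leukocyte markers tested had a positive log2 fold change (median 0.21), beside 47.4% of all genes tested, and 0 passed edgeR's test. Summed epithelial markers ranged from 4705 to 10064 CPM in vehicle and from 4898 to 7221 CPM in liraglutide tumors, and fibroblast markers from 1705 to 4056 and from 2330 to 3971 CPM. The fibroblast sum had r = 0.65 with Foxa1 and Sox9, 0.15 with Hmga2, 0.16 with Runx2, -0.34 with Nkx2-1, -0.37 with Foxa2, -0.3 with Hnf4a, -0.52 with Sftpc and -0.53 with Gkn2. The epithelial sum had r = -0.88 with Foxa1, -0.84 with Sox9, -0.34 with Hmga2 and -0.38 with Runx2, against 0.71 with Foxa2, 0.67 with Hnf4a, 0.3 with Nkx2-1, 0.29 with Gkn2 and -0.01 with Sftpc. The endothelial sum had r between -0.55 and 0.42 with the 9 genes, and the adipocyte sum between -0.42 and 0.12. The 7 skeletal muscle markers summed to between 37.2 and 266 CPM in vehicle and between 72 and 320 CPM in liraglutide tumors, and all 7 had a positive log2 fold change (median 0.7), with 0 passing edgeR's test. That sum had r = 0.5 with Nkx2-1, 0.54 with Foxa2, 0.55 with Hnf4a, 0.48 with Sftpc and 0.33 with Gkn2, and -0.58 with Hmga2, -0.54 with Runx2, -0.44 with Foxa1 and -0.38 with Sox9. The part of these cells in the lineage values was not tested.

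The genes closest in pattern were found by Pearson r over the 10 tumors, among 11816 other genes of at least 5 CPM (11817 for Sftpc). Nkx2-1 was nearest to Sfta3 (0.985), Tmie (0.982) and Nectin2 (0.982), and 330 genes had r over 0.9 with it. Sftpc was nearest to Ros1 (0.959), Cxcl15 (0.958), which is secreted by lung epithelium, and Ptges2 (0.952). Foxa2 was nearest to Gm19461 (0.985), Spint2 (0.982) and Inava (0.981), and Hnf4a to Gm12349 (0.972), Scap (0.968) and Mlph (0.967). Gkn2 was nearest to Cutc (0.955), Gnpat (0.947) and Muc5ac (0.941), the main mucin of gastric surface cells.

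Genes of the other set had their own neighbors. Foxa1 was nearest to Nlgn2 and Bcl7a (0.968 each) and Sbk1 (0.967), and Sox9 to Cbx5 (0.988), Cwf19l1 (0.976) and Pank2 (0.97). Hmga2 was nearest to its antisense transcript 1700006J14Rik (0.985), Gnasas1 (0.98) and Ints10 (0.978), and Runx2 to Tcf20 (0.967), Fbxw7 (0.958) and Rbsn (0.948). Muc5ac shared the tumor pattern of Gkn2, at 50.9, 18.2, 24.7, 105 and 1023 CPM in vehicle tumors and 97.9, 138, 48.5, 136 and 767 CPM in liraglutide tumors. As for Gkn2, the tumor numbered 5 was highest in each group.

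Other genes of the alveolar program were present unevenly. Of 13 alveolar type 2 genes, 10 were tested, 0 passed edgeR's test, 0 had an unadjusted p under 0.05 and 9 had a positive log2 fold change (median 0.61, beside -0.017 over all genes tested). Sftpb, a surfactant protein, was abundant at 274 CPM in vehicle and 256 CPM in liraglutide tumors, and so was the lipid transporter Abca3 at 82.6 and 123 CPM. Napsa, a protease marker of lung adenocarcinoma, had only 4 to 30 counts. Of 14 alveolar type 1 genes, 13 were tested and 7 were positive (median 0.19). Of the 13, 1 had an unadjusted p under 0.05, Cav1, which was lower under liraglutide (171 and 126 CPM, adjusted p = 0.482 by edgeR). Cldn18, a tight junction gene with a lung and a gastric isoform, stood at 378 and 512 CPM.

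Gastric and intestinal genes were mixed in level as well. Of 24 listed genes, 23 were found in the count file and 14 were tested, of which 9 had a positive log2 fold change (median 0.24) and 0 passed the test. The cadherin Cdh17 was highest at 600 CPM in vehicle and 390 CPM in liraglutide tumors (unadjusted p = 0.0421, adjusted p = 0.515 by edgeR). The protease Ctse stood at 189 and 305 CPM and the lectin Lgals4 at 195 and 233 CPM. Foxa3, a forkhead relative of Foxa1 and Foxa2, had an unadjusted p under 0.05 with the higher mean under liraglutide, 1.02 and 1.97 CPM (adjusted p = 0.518 by edgeR). Some stomach products were nearly silent, with at most 3 counts for Pgc, at most 11 for Tff1 and 0 for Tff3 in all 10 tumors, while Gkn1, a relative of Gkn2, reached 110 counts in vehicle tumor 5. Hnf4a was therefore accompanied by some gastric genes and not by others.

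Airway and embryonic tip genes were fewer. Of 11 airway genes, 6 were tested and 5 were positive (median 1.32). The mucin Muc5b was the abundant one, at 24.8 to 776 CPM in vehicle and 97.7 to 1661 CPM in liraglutide tumors (log2 fold change 1.07, adjusted p = 0.72 by edgeR). As for Gkn2 and Muc5ac, its highest value in each group was in the tumor numbered 5. Gkn2 had r = 0.93 with the log2 sum of the airway genes and 0.58 with that of the gastric and intestinal genes. The basal cell genes Krt5 and Trp63 had an unadjusted p under 0.05 (0.687 and 7.55 CPM for Krt5, 0.732 and 2.39 CPM for Trp63). Basal keratinocytes of the overlying skin express the same 2 genes. Of the 6 keratinocyte markers tested, 4 had an unadjusted p under 0.05, all higher, and 0 passed edgeR's test. Among all 17464 genes tested, 694 were higher at an unadjusted p under 0.05. The 8 keratinocyte markers summed to between 19.6 and 70.1 CPM in vehicle and between 19.3 and 227 CPM in liraglutide tumors, highest in liraglutide tumor 2. Their summed level had r between -0.03 and 0.33 with the 9 lineage genes. Of 8 tip genes, 6 were tested and 2 were positive (median -0.12), and Bmp4 had an unadjusted p under 0.05 (25.3 and 60.1 CPM, adjusted p = 0.515 by edgeR). Mycn, below the filter and named after its values were seen, had 4, 0, 0, 5 and 6 counts in vehicle tumors and 7, 13, 15, 37 and 30 in liraglutide tumors. Its groups did not overlap, with 6 counts in the highest vehicle tumor and 7 in the lowest treated one. Groups did not overlap for 1.49% of the genes tested, a share that covers only genes that passed the filter, unlike Mycn. Mycn was named for its lack of overlap, so no test is given.

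Progression genes other than the 3 of the set ranged from abundant to nearly silent. Of 17 listed, 15 were tested and 6 had a positive log2 fold change (median -0.19), with 0 passing the test. The integrin Itga2 stood at 744 and 646 CPM, the matrix protein Tnc at 530 and 566 CPM and Hmga1, the relative of Hmga2, at 433 and 274 CPM (adjusted p = 0.571 by edgeR). Cbfb, the partner protein of RUNX factors, averaged 220 CPM in vehicle and 131 CPM in liraglutide tumors (unadjusted p = 0.0436, adjusted p = 0.515 by edgeR), and Bmal2 averaged 6.45 and 8.98 CPM (unadjusted p = 0.0371, adjusted p = 0.513). Cldn4 had at most 12 counts in a tumor and Lin28b at most 4. Of 12 skeletal genes controlled by SOX9 or RUNX2 in cartilage and bone, 3 were tested. Acan, the cartilage proteoglycan, was abundant at 644 and 307 CPM (adjusted p = 0.59 by edgeR), whereas Col2a1 had at most 2 counts in a tumor and Bglap at most 3.

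The label of lung adenocarcinoma was borne out in part by its markers. Krt8, an epithelial keratin, averaged 2435 CPM in vehicle and 2030 CPM in liraglutide tumors, Cdh1 averaged 1129 and 1559 CPM, and Nkx2-1 and Sftpb were present in all 10 tumors. Krt18, Krt19 and Krt7 were also abundant, at 1039 to 1999, 724 to 2262 and 104 to 411 CPM over the 10 tumors. The remaining epithelial markers were low, with 2 to 67 counts per tumor for Epcam, 3 to 29 for Cldn7, 1 to 33 for Esrp1, 5 to 19 for Grhl2 and 4 to 16 for Ovol1. Napsa and Sftpc were low as well.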

How the data were processed

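RNA of 10 tumors was compared, 5 per group, with groups taken from the sample titles. The authors deposited raw counts per gene, made by mapping read pairs with Bowtie and TopHat and counting with featureCounts. The methods name GRCm39 and the submitters' processing notes name mm10, and annotation release, strand setting and handling of multiply mapped reads were not given in the sources used here. Of the gene identifiers, 51731 (93.38%) matched GENCODE M39, which gave symbols, lengths and GRCm39 positions. Promoters came from RefSeq on GRCm38.p6.

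Counts were analyzed in R 4.3.3. Genes were filtered with filterByExpr (17464 kept), scaled by TMM and tested with edgeR 4.0.16, with treatment as the single factor. DESeq2 1.42.0, limma-voom (limma 3.58.1), other scaling and filters, a replicate block and leaving out each tumor were alternatives. Log2 CPM used a prior count of 2. Library totals of 9927942 to 14480593 left counting error smaller than tumor spread for all 10 genes (chi-square per degree of freedom at least 2.55, in Hopx). Replicates were separate mice. Named genes were the 10, up to 4 of highest vehicle level per list and the 3 most alike by r. Others were chosen after their values were seen, namely list genes at an unadjusted p under 0.05, low defining markers, Mycn and Krt7. Members and lists were chosen with earlier results of these data known.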

Additional observations from a re-analysis of the deposited data

Results flagged for a closer look

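Dixon's test for 5 values was run on CPM in 20 groups (10 genes in each treatment). In 4 of them a single tumor lay farther from the other 4 than the 95% limit allows. Chance does this in about 1 of 20 groups if values are normally distributed. In vehicle tumors the mean CPM was far above the median for Gkn2 (14.9 and 0.829) and Sftpc (1.15 and 0.105). That rate therefore need not hold for them, and the test was not repeated on log2 CPM. For Sftpc, vehicle tumor 4 measured 4.85 CPM, and the next highest vehicle tumor 0.733. Gkn2 in vehicle tumor 5 measured 60.3 CPM, with the next at 12.1, and Gkn2 in liraglutide tumor 5 measured 79.4 CPM, with the next at 5.86. For Foxa2, liraglutide tumor 2 measured 38.2 CPM, below the next lowest treated tumor at 58.4. The cause was not tested.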

How the results depend on the processing

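Of 169 fold changes recomputed for the 9 genes tested, 159 kept their direction, and 0 of the genes were called in any of the 19 settings. Without vehicle tumor 4 the vehicle mean of Sftpc was 0.227 CPM in place of 1.15, and without vehicle tumor 5 that of Gkn2 was 3.5 in place of 14.9. Over all genes, DESeq2 called 18 where edgeR called 0. With the longest transcript in place of all exons, 6 of 10 genes kept their rank, since Hmga2 then preceded Hnf4a and Runx2 preceded Foxa1. The log2 fold change of Foxa1 was 0.04 with limma-voom, with library size alone and with the replicate block, and 0.01 when 10 or more counts were required of all tumors. Leaving out 1 tumor at a time gave -0.16 to 0.16 for Foxa1, -0.52 to 0.01 for Sox9 and -2.07 to 2.42 for Gkn2. The cause was not tested.

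Tumor numbers are shared by both groups. Deviations of same-numbered tumors correlated at 0.354, 0.565, -0.075, 0.068 and 0.389, and 1 of 5 matched its own number best. Since 2 of the pairs did not correlate, the tumors were not treated as paired, and whether the number marks a batch is not known. With that number as a replicate block, edgeR called 0 genes, and 2585 had an unadjusted p under 0.05. Nkx2-1 had a log2 fold change of 1.2 (adjusted p = 0.24) and Hmga2 -0.57 (adjusted p = 0.291). Among the 10 genes, counts under 3 occurred in Sftpc and Hopx.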

Other observations

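Anxa10, an annexin of gastric epithelium that was known from earlier results of these data and is in none of the lists, averaged 233 ± 85.7 CPM in vehicle and 99.6 ± 28 CPM in liraglutide tumors (SD, n = 5 each). Its log2 fold change was -1.23 (adjusted p = 0.482 by edgeR and 0.016 by DESeq2, a call by the latter). All 5 liraglutide tumors lay below all 5 vehicle tumors, as groups did not overlap for 1.49% of the genes tested. Since the gene was named for a known difference, these values are a description.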
